A study of Mus musculus with 6 samples.

Results

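The SR protein kinases, their relatives of the CLK family and a small group of splicing coactivators were followed in germ cells that had lost *Srsf1*. The genes described are the kinases *Srpk1*, *Srpk2* and *Srpk3*, the kinases *Clk1*, *Clk2*, *Clk3* and *Clk4*, the activators *Tra2a* and *Tra2b*, and the coactivator *Srrm2*. They were chosen by gene name, and all 10 were found, with 1 row each, among the 54532 genes of the deposited table. RNA-seq of total RNA was available from germ cells of mouse testis labelled STRA8+. STRA8 is a protein that germ cells make as they enter differentiation and meiosis. The control group (Ctrl, 3 libraries) had the genotype Cre, and the conditional knockout group (cKO, 3 libraries) had a knockout of *Srsf1*. The treatment field of the labels names a conditional knockout in both groups alike. The Cre driver, the age of the mice and whether animals were pooled are not given in the labels. These also do not say that the libraries of a group came from separate animals, so the p-values below measure the spread between these libraries, which may be technical.

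SR proteins such as SRSF1 carry a domain rich in arginine and serine (the RS domain), and the phosphorylation of its serines sets where they are and how they act. SRPK kinases act mainly in the cytoplasm, and SR proteins phosphorylated by them are taken into the nucleus. CLK kinases act in the nucleus, where they phosphorylate further residues and release SR proteins from nuclear speckles, the stores of splicing factors. TRA2A and TRA2B bind GAA-rich enhancers in exons and favour their inclusion, and SRRM2 is a large RS-rich protein that forms the scaffold of the speckles. Several of these genes are known to limit their own expression through splicing, by retained introns in the CLK genes and by a poison exon in the *Tra2* genes.

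*Srsf1* itself was at 84.7, 45.2 and 51.9 FPKM (fragments per kilobase of exon, after scaling to the size of the library) in the 3 control libraries. It was at 5.08, 4.94 and 5.17 FPKM in the 3 cKO libraries, all below every control (log2 fold change -3.29, SE 0.22, limma adjusted p = 5.6e-05). *Stra8*, the gene of the marker in the label, was at 222 to 262 FPKM in controls and 242 to 313 FPKM in cKO (adjusted p = 0.359). Between 15364511 and 17310353 fragments were counted in a control library and between 14447887 and 15326722 in a cKO library. Markers of the late germ cell stages differed between the groups. The summed level of 9 spermatid markers was 2520, 8287 and 2476 FPKM in controls 1, 2 and 3 and 6.38 to 8.86 FPKM in cKO, and all 9 fell. These control sums lay above the level of *Stra8*, so the control libraries held much RNA of spermatid genes. The sum of 9 pachytene markers was 713 to 862 FPKM in controls and 109 to 132 FPKM in cKO, and 7 of them fell. The sums overlapped between groups for 9 early meiotic markers (818 to 1091 against 851 to 1116 FPKM), for 7 markers of differentiating spermatogonia (499 to 524 against 485 to 551 FPKM) and for 9 of undifferentiated spermatogonia (42.9 to 55.8 against 47.8 to 54.6 FPKM). Single markers of these stages changed within overlapping sums, and they are named after their values were seen. *Spo11*, which makes the meiotic double-strand breaks (-1.01, adjusted p = 0.00496), *Dmrtb1*, a regulator of the entry into meiosis (-1.35, adjusted p = 0.000302), and *Id4*, a marker of spermatogonial stem cells (-1.30, adjusted p = 0.000237), fell. *Ret*, the receptor of GDNF signals, rose (0.57, adjusted p = 0.0167). Of the markers tested, 1 of 9 early meiotic, 1 of 7 differentiating and 1 of 8 undifferentiated fell, beside 22.2% of all genes tested. Only 1 marker of these lists rose, beside 11.8%. The median log2 fold changes of the lists were -0.034, 0.14 and 0.19 in this order, so *Dmrtb1* and *Id4* went against the median of their lists. Of 24 somatic markers, 11 passed the filter, and *Rhox5*, a Sertoli cell gene named after its values were seen, rose (0.72, adjusted p = 0.0277, 0.00588 to 0.0886 over its alternatives). *Star*, a Leydig cell gene also named after its values were seen, was at 2.57 to 2.77 FPKM in controls and 3.49 to 4.87 FPKM in cKO (0.42, adjusted p = 0.0511). Its rise passed the threshold in 5 of 14 alternatives (adjusted p 0.00469 to 0.130). The 1 of 11 called stands beside 11.8% of all genes tested. At an unadjusted p under 0.05, and with limma-voom, 2 of the 11 rose, beside 18.3% and 16.1% of all genes. In limma, 0 of the 11 fell, beside 22.2% of all genes tested, and with limma-voom 0 fell, beside 3334 of 15451 genes. At an unadjusted p under 0.05, 0 fell as well, and the falls over all genes were not counted there. The somatic sums overlapped for Sertoli cells (55.5 to 84.0 against 46.6 to 116.9 FPKM), Leydig cells (2.95 to 14.0 against 6.34 to 10.7 FPKM), peritubular cells (1.75 to 4.76 against 4.19 to 4.99 FPKM) and blood, macrophage and endothelial cells (12.6 to 31.9 against 9.74 to 18.4 FPKM). For Leydig and peritubular cells the overlap came from control 2 alone, with sums of 14.0 and 4.76 FPKM. Controls 1 and 3 lay below every cKO library, at 5.43 and 2.95 FPKM for Leydig and 2.11 and 1.75 FPKM for peritubular cells. In these bulk libraries, fewer cells of a type and less RNA per cell cannot be told apart. The part of the lower late-stage markers, and of the high spermatid sum in control 2, in the results below was not tested.

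Of the 10 genes, 9 averaged 1 FPKM or more and were tested together with the other genes above that level, 15451 in all. *Srrm2* rose in cKO, *Srpk1* and *Srpk2* fell, and the other 6 tested genes did not pass an adjusted p of 0.05. Among all genes tested, 11.8% rose and 22.2% fell. The 1 rise and 2 falls among 9 genes are close to these shares. The log2 fold change was below 0 for 7 of the 9 genes, with a median of -0.19, beside a median of -0.0082 over all genes tested. The cKO libraries lay wholly below or above the control libraries for 5 of the 9 genes, and for 50.4% of all genes tested. That is, *Srpk1*, *Srpk2*, *Tra2a* and *Tra2b* were lower, and *Srrm2* was higher, in every cKO library than in every control.

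**Figure D1:**
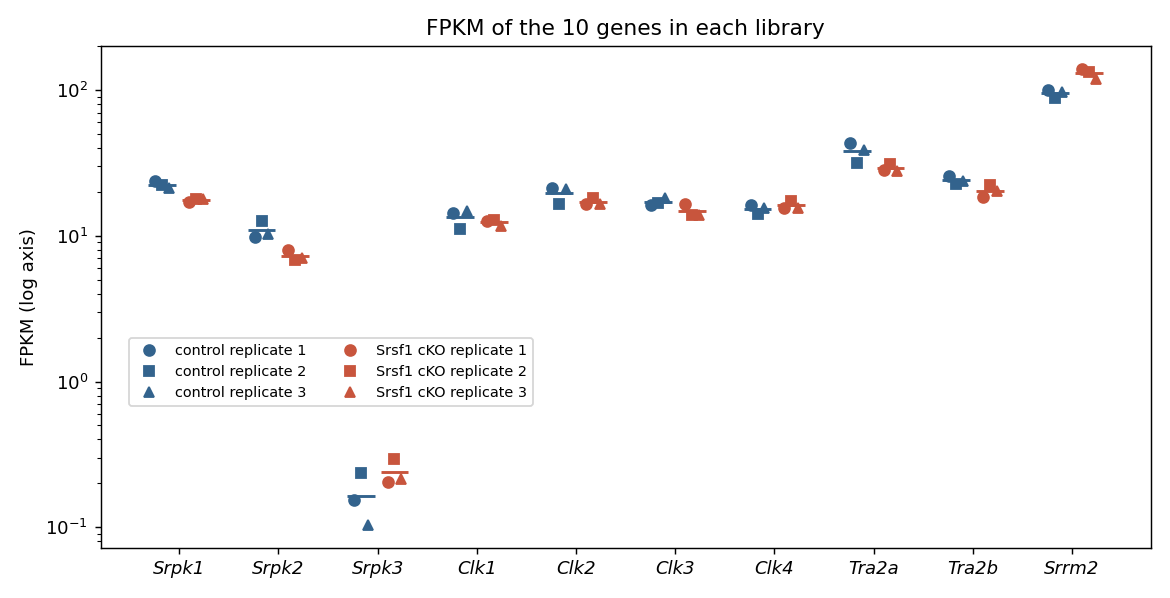
FPKM (log axis) of the 10 genes in each of the 6 libraries, with blue points for control and red points for Srsf1 cKO libraries. The shape of a point gives the replicate number, and the lines give the group means. *Srrm2* was the most abundant gene and lay higher in the cKO libraries, *Srpk3* lay under 0.3 FPKM in every library, and the other genes lay between 6.77 and 43.4 FPKM.

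The reference sequences at the starts of *Srrm2*, *Srpk1* and *Srpk2* are shown, since these are the 3 genes that changed. RefSeq windows of 300 bases around the gene starts (GRCm38.p6) were matched by symbol for 9 of the 10 genes. *Clk1* was not matched. Capitals mark a match, on either strand, to the GC box (GGGCGG), the CCAAT box (CCAAT), the cyclic AMP response element (CRE, TGACGTCA) or TATAAA. Each sequence is written 5′ to 3′ along the strand of its gene.

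Srrm2, chr17:23802937-23803236, plus strand: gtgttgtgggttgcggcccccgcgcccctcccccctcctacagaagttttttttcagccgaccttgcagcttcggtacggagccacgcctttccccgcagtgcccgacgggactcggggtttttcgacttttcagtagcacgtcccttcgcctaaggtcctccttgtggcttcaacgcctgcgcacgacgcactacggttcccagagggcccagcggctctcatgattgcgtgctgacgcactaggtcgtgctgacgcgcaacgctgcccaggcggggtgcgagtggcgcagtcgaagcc
Srpk1, chr17:28622472-28622771, minus strand: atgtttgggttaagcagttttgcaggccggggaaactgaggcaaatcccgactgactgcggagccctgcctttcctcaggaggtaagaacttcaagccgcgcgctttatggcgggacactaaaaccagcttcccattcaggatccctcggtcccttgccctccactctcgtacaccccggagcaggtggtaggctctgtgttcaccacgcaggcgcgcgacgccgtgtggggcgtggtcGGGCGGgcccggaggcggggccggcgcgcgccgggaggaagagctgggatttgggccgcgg
Srpk2, chr5:23675918-23676217, minus strand: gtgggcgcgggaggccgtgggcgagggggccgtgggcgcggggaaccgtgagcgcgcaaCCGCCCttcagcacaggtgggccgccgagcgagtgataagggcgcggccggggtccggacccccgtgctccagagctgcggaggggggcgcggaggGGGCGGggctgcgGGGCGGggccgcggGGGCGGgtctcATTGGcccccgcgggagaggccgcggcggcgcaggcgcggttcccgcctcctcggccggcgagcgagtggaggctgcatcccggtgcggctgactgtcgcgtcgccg

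RefSeq gives 2 starts of *Srrm2* with overlapping windows, which held none of the 4 motifs and 30 and 33 CG dinucleotides, and the first is shown. The *Srpk1* window held 1 GC box and 28 CG dinucleotides. RefSeq gives 3 starts of *Srpk2*, and the window shown is the one with the most CG dinucleotides, 47, beside 7 and 5 in the others. It held 4 GC boxes and 1 CCAAT box. Among the 32851 RefSeq windows of the mouse, 35.66% held a GC box, 37.41% a CCAAT box, 1.79% a CRE and 13.62% TATAAA, and the median number of CG dinucleotides was 7 (quartiles 3 and 20). The windows of *Clk4* and *Tra2a* each held 1 CRE, beside 1 and 2 GC boxes. *Srpk3*, alone of the SRPK genes, had no GC box at any RefSeq start, and its window held 3 matches to TATAAA, counted on both strands with overlap. A match of letters is a description and not a site of binding.

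Both SRPK kinases that these cells expressed above the filter fell. *Srpk1* (ENSMUSG00000004865, chr17:28587648-28622709, minus strand) is the broadly expressed member, first known as the kinase that breaks up speckles when in excess. It was at 23.9, 22.3 and 21.2 FPKM in controls and at 17.1, 18.0 and 17.8 FPKM in cKO, on 3253 to 4879 fragments a library. All cKO libraries lay below all controls, and the cKO values were close to each other. The group means were 22.5 ± 1.37 and 17.6 ± 0.460 FPKM (SD, n = 3 each). The log2 fold change was -0.33 (SE 0.073, 95% interval -0.51 to -0.16, limma adjusted p = 0.0127), 1.26-fold lower on the scale of the test (FPKM + 1).

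*Srpk2* (ENSMUSG00000062604, chr5:23503264-23684617, minus strand), its closest relative, known from brain and other tissues, fell more in these libraries, though the intervals of both falls overlap. It was at 9.84, 12.7 and 10.3 FPKM in controls and at 7.97, 6.77 and 7.03 FPKM in cKO, on 1378 to 2706 fragments. Control 2, the library with the highest spermatid sum, was its highest library, and the groups did not overlap without it either. The fall was -0.53 on the log2 scale (SE 0.12, 95% interval -0.81 to -0.25, adjusted p = 0.0135), 1.44-fold on the scale of the test (FPKM + 1). The change of the mean FPKM was -33.7%. Without cKO replicate 3 it was -0.51, and the adjusted p of 0.0537 missed the threshold. *Kmt2e*, on the opposite strand, shares 972 exon bases (6.99%) with *Srpk2*, and its mean was 12.1 FPKM in controls and 14.5 FPKM in cKO (adjusted p = 0.120). Whether the counting used strand is not given in the sources used here, so reads in these shared bases cannot be told apart. After quantile normalisation, which set the median over all genes tested to 0.21 on the log2 scale, *Srpk1* was at -0.20 (adjusted p = 0.0534) and *Srpk2* at -0.31 (adjusted p = 0.0595).

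*Srpk3* (ENSMUSG00000002007, chrX:73774405-73778925, plus strand), the kinase of muscle, was at 0.153, 0.234 and 0.104 FPKM in controls and 0.206, 0.294 and 0.213 FPKM in cKO. These levels rest on 5 to 12 fragments a library, just over the floor of 3 fragments, and the gene was not tested. The groups overlapped. Summed over the 3 SRPK genes, the level was 33.9, 35.2 and 31.6 FPKM in controls (mean 33.6 ± 1.80) and 25.3, 25.0 and 25.0 FPKM in cKO (mean 25.1 ± 0.137). *Srpk1* made up most of the sum in each library, and the cKO sums lay within a narrower range than the control sums.

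The CLK kinases were at like levels in both groups, with none past the threshold, and their intervals still allow changes of the size seen in *Srpk1* for 3 of the 4. *Clk1* (ENSMUSG00000026034, chr1:58410189-58424066, minus strand) was at 14.3, 11.2 and 14.7 FPKM in controls and 12.7, 12.7 and 11.7 FPKM in cKO. Control 2 was its lowest library and the other controls its highest. The log2 fold change was -0.099 (SE 0.11, 95% interval -0.37 to 0.17, adjusted p = 0.540), and it was 0.075 after quantile normalisation (adjusted p = 0.657). It ran from -0.21 without control 2 to -0.033 without control 3, with an adjusted p of 0.0878 or more.

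*Clk2* (ENSMUSG00000068917, chr3:89164795-89176921, plus strand), a kinase also known to act downstream of insulin in liver, was at 21.1, 16.6 and 20.8 FPKM in controls and 16.6, 18.2 and 16.6 FPKM in cKO. Control 2 lay within the cKO range and the other controls above it. The log2 fold change was -0.17 (SE 0.11, 95% interval -0.43 to 0.081, adjusted p = 0.256). Without control replicate 2 it was -0.28, with an adjusted p of 0.0375.

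*Clk3* (ENSMUSG00000032316, chr9:57750624-57765860, minus strand), whose protein is also known from the acrosome of sperm, was at 16.2, 16.8 and 18.2 FPKM in controls and 16.5, 13.9 and 14.0 FPKM in cKO. cKO replicate 1 lay within the control range, and the other cKO libraries lay below it. Its log2 fold change was -0.19 (SE 0.094, 95% interval -0.42 to 0.029, adjusted p = 0.157). *Edc3*, on the opposite strand, shares 1284 exon bases (15.2%) with *Clk3*, the largest such share among the 10 genes, and its log2 fold change was 0.16 (adjusted p = 0.111).

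*Clk4* (ENSMUSG00000020385, chr11:51261730-51281766, plus strand), the closest relative of *Clk1*, was the only CLK gene with a log2 fold change above 0. It was at 16.3, 14.0 and 15.5 FPKM in controls and 15.5, 17.4 and 15.6 FPKM in cKO. Control 1 lay above cKO replicates 1 and 3, and the other controls lay below all cKO libraries, so the groups overlapped, and the log2 fold change was 0.080 (SE 0.088, 95% interval -0.13 to 0.29, adjusted p = 0.518). It ran from 0.023 without control 2 to 0.13 without control 1. Summed over the 4 genes, the CLK level was 65.2 ± 5.78 FPKM in controls and 60.5 ± 2.31 FPKM in cKO. The sums in single libraries were 68.0, 58.6 and 69.1 FPKM in controls and 61.4, 62.2 and 57.9 FPKM in cKO, so that control 2 lay among the cKO libraries. In limma, 0 of the 4 genes passed in either direction, beside rises of 11.8% and falls of 22.2% of all genes tested. It was also 0 at an unadjusted p under 0.05 and with limma-voom, where 18.3% and 16.1% of all genes rose. The falls over all genes were 3334 of 15451 with limma-voom and were not counted at the unadjusted p.

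**Figure D2:**
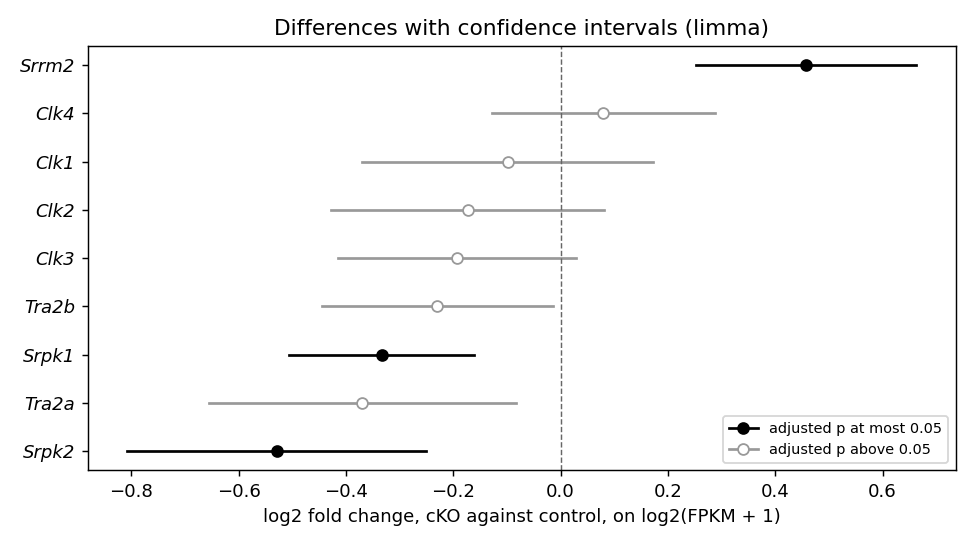
Log2 fold change of the 9 tested genes, cKO against control, on the log2(FPKM + 1) scale (x axis), with lines for the 95% confidence intervals of limma. Filled points mark an adjusted p of at most 0.05: *Srrm2* at 0.46, *Srpk1* at -0.33 and *Srpk2* at -0.53. The intervals of *Tra2a* and *Tra2b* also lie below 0 without passing the adjusted threshold, and *Clk1* lies above 0 after quantile normalisation.

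Both *Tra2* genes were lower in every cKO library than in every control, and neither passed the adjusted threshold. *Tra2a* (ENSMUSG00000029817, chr6:49243924-49264033, minus strand) was at 43.4, 31.6 and 38.9 FPKM in controls and 28.3, 30.9 and 27.6 FPKM in cKO. Control 2, the lowest control, was 31.6 FPKM beside 30.9 FPKM in the highest cKO library. The group means were 38.0 ± 5.98 and 29.0 ± 1.71 FPKM, with a log2 fold change of -0.37 (SE 0.12, 95% interval -0.66 to -0.083, adjusted p = 0.0537). Without control replicate 2 the log2 fold change was -0.49 (adjusted p = 0.0078), and with a filter at a mean of 5 FPKM or with limma-voom the adjusted p was 0.0486 or 0.0424. Over all alternatives it ran from 0.0078 to 0.154.

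*Tra2b* (ENSMUSG00000022858, chr16:22244549-22266005, minus strand), the paralogue that mice need to survive to birth, was at 25.6, 22.7 and 23.8 FPKM in controls and 18.5, 22.3 and 20.4 FPKM in cKO. The gap between the groups, from 22.3 to 22.7 FPKM, was smaller than the spread within either group. Its log2 fold change was -0.23 (SE 0.091, 95% interval -0.45 to -0.015, adjusted p = 0.0935). The summed *Tra2* level was 69.1, 54.3 and 62.8 FPKM in controls (mean 62.0 ± 7.42) and 46.8, 53.2 and 48.1 FPKM in cKO (mean 49.4 ± 3.37). Both genes had an unadjusted p under 0.05. The falls over all genes tested were not counted at that threshold, and at the adjusted one they were 22.2%.

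*Srrm2* (ENSMUSG00000039218, chr17:23790532-23824741, plus strand), the speckle scaffold and by far the most abundant of the 10 genes, moved the other way. It was at 99.8, 88.3 and 96.7 FPKM in controls and 140.0, 133.6 and 119.1 FPKM in cKO, on 17390 to 28254 fragments a library. Every cKO library lay above every control by a wide gap, from 99.8 to 119.1 FPKM. The group means were 95.0 ± 5.94 and 130.9 ± 10.7 FPKM. The rise was 0.46 on the log2 scale (SE 0.086, 95% interval 0.25 to 0.66, adjusted p = 0.00698), 1.37-fold higher on the scale of the test (FPKM + 1). Over the 15 alternatives tried, the log2 fold change ran from 0.41 to 0.53 and the adjusted p from 0.0015 to 0.0273. *Elob*, on the opposite strand, shares 4 exon bases with *Srrm2*, and it was at 136 to 177 FPKM in controls and 130 to 142 FPKM in cKO (adjusted p = 0.329).

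The balance within each pair of related genes was compared by the log2 ratio of their FPKM, in which the scaling of a library cancels. The ratio of *Srpk1* to *Srpk2* was 1.28, 0.81 and 1.04 in controls and 1.10, 1.41 and 1.34 in cKO, that is, *Srpk1* was the higher of the pair in all 6 libraries. The ratio of *Clk1* to *Clk4* was -0.19, -0.32 and -0.074 in controls and -0.29, -0.45 and -0.42 in cKO. That of *Clk2* to *Clk3* was 0.39, -0.017 and 0.20 in controls and 0.0041, 0.39 and 0.24 in cKO. *Tra2a* was above *Tra2b* in every library, with log2 ratios of *Tra2b* to *Tra2a* of -0.76, -0.48 and -0.71 in controls and -0.62, -0.47 and -0.44 in cKO. The groups overlapped in all 4 ratios. The differences of the means, cKO minus control, were 0.24 for *Srpk1* to *Srpk2*, -0.19 for *Clk1* to *Clk4*, 0.023 for *Clk2* to *Clk3* and 0.14 for *Tra2b* to *Tra2a*. Leaving out 1 library moved the first to 0.12 (without control 2) or 0.36 (without control 1) and turned the third to -0.079 (without control 2) or -0.064 (without cKO replicate 2). The exact two-sided permutation p was 0.2, 0.2, 0.7 and 0.2 (Benjamini-Hochberg adjusted over the 4 ratios, 0.267, 0.267, 0.7 and 0.267), where 3 libraries against 3 cannot give less than 0.1.

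**Figure D3:**
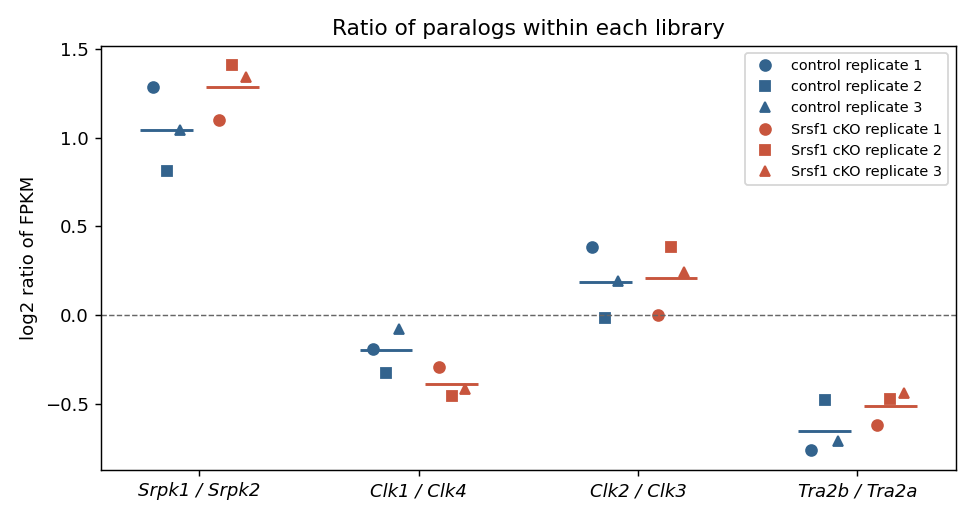
Log2 ratio of the FPKM of 4 pairs of related genes (y axis) in each library, with control in blue, Srsf1 cKO in red, shapes for the replicate number and lines for the group means. The points of the groups overlap in every pair, *Srpk1* lies above *Srpk2* and *Tra2a* above *Tra2b* in all 6 libraries, and the means differ by at most 0.24.

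By mean FPKM over the 6 libraries, the order of levels was *Srrm2* (112.9), *Tra2a* (33.5), *Tra2b* (22.2), *Srpk1* (20.0), *Clk2* (18.3), *Clk3* (15.9), *Clk4* (15.7), *Clk1* (12.9), *Srpk2* (9.11) and *Srpk3* (0.201 FPKM). The order of the group means was the same in both groups but for *Clk3* and *Clk4*, at means of 17.05 and 15.3 FPKM in controls and 14.8 and 16.2 FPKM in cKO. Within the control libraries the ranges of neighbours overlapped for *Tra2b* and *Srpk1*, *Clk2* and *Clk3*, *Clk3* and *Clk4*, *Clk4* and *Clk1*, and *Clk1* and *Srpk2*. Within the cKO libraries they overlapped for *Srpk1* and *Clk2* and for *Clk3* and *Clk4*. The gene length behind the FPKM bears on this order. In GENCODE M21 (GRCm38) it is the union of all annotated exons for each of the 10 genes, including exons of transcripts that retain introns.

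Such transcripts are a feature of all 10 genes. Each has at least 1 transcript annotated with a retained intron, beside 55.15% of the 12294 tested protein-coding genes in the annotation, and all but *Srpk3* have a transcript annotated for nonsense-mediated decay, beside 27.92%. Of the 13 transcripts of *Clk1*, 7 retain an intron and 1 is protein-coding, and of the 14 transcripts of *Clk4*, 7 retain an intron. Exon bases outside protein-coding transcripts made up 77.9% of the length in *Clk1*, 74.0% in *Tra2a*, 62.2% in *Clk4* and 61.7% in *Tra2b*, but 26.6% in *Srrm2*. Per length of the longest protein-coding transcript, with the same fragments, *Clk1* would stand in place 4 of the order instead of place 8. The table gives 1 value per gene, so fragments of coding, intron-retaining and decay transcripts were not separated here, and a level above is the sum of them. Of the 100-base windows of their transcripts, 87.4% in *Clk3*, 93.8% in *Srpk2*, 95.5% in *Tra2b* and at least 99.4% in the other genes occurred in no other annotated gene.

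Of 16 other kinases and phosphatases of splicing factors, all tested, 2 rose and 4 fell, with a median log2 fold change of 0.037. These counts are 12.5% and 25.0% of the list, close to the 11.8% and 22.2% of all genes tested. *Cdk12*, a kinase of the RNA polymerase II tail, was at 22.5, 20.4 and 23.7 FPKM in controls and 29.0, 33.6 and 27.9 FPKM in cKO (0.42, adjusted p = 0.0146), and its rise passed the threshold in 14 of 15 alternatives (adjusted p 0.00333 to 0.0618). *Ppp1r8*, a nuclear inhibitor of protein phosphatase 1, had an adjusted p of 0.0300 for its rise (0.25), and it passed the threshold in 8 of 15 alternatives (adjusted p 0.00783 to 0.115), and in 1 of the 6 that leave out a library. The largest falls were in 2 of the 5 listed genes of the DYRK family, relatives of the CLK kinases. *Dyrk3*, whose product dissolves speckles and other condensates, was at 10.4, 13.2 and 11.8 FPKM in controls and 3.28, 3.33 and 3.62 FPKM in cKO (-1.53, SE 0.11, adjusted p = 8.2e-05). *Dyrk1b* was at 36.2, 54.1 and 36.3 FPKM in controls and 17.6, 13.2 and 14.4 FPKM in cKO (-1.41, SE 0.18, adjusted p = 0.00114). In both genes every cKO library lay well below every control. The groups overlapped for *Dyrk1a* (0.14), *Dyrk2* (-0.15) and *Dyrk4* (-0.40), which did not pass the threshold. The other falls were in *Ppp1cc*, a catalytic subunit of protein phosphatase 1 (-0.43), and *Ppm1g*, a nuclear phosphatase (-0.42), and these are named after their values were seen.

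Of 21 SR-related coactivators, 19 were tested, 2 rose and 1 fell, with a median of 0.13. That is 10.5% and 5.26% of those tested, beside 11.8% and 22.2% of all genes. *Son*, the other large RS-rich protein of the speckle core, was at 39.8, 35.8 and 35.8 FPKM in controls and 49.3, 48.2 and 44.6 FPKM in cKO (0.34, SE 0.075, adjusted p = 0.0125, and 0.0506 without control replicate 3). *Scaf8*, which binds the polymerase tail, rose as well (0.31, SE 0.060, adjusted p = 0.00712, and 0.00337 to 0.0529 over its alternatives, of which 14 of 15 passed), and *Luc7l*, a U1 snRNP factor, fell (-0.42, SE 0.080, adjusted p = 0.00714). *Srrm1*, the partner of *Srrm2* in name, was at 35.6 to 38.6 FPKM in controls and 32.7 to 36.5 FPKM in cKO (-0.072, adjusted p = 0.476), and it is named after its values were seen. *Srrm3* and *Srrm4*, the neuronal relatives, were below 1 FPKM in every library. The number of coactivators that rose was 9 after quantile normalisation, which gives all libraries the same distribution of values. It was 5 on FPKM without the authors' library factor, which changes the scaling alone. It was also 5 with limma-voom, which changes the input and the weighting as well. The rises over all genes tested grew too, from 11.8% to 33.4%, 14.8% and 16.1% in this order.

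Of 10 SR proteins other than SRSF1, the substrates of these kinases, 9 were tested. *Srsf9*, the closest relative of *Srsf1*, was at 119, 147 and 140 FPKM in controls and 177, 181 and 166 FPKM in cKO (0.37, SE 0.094, adjusted p = 0.0231). Its groups did not overlap, as in 50.4% of all genes tested, and this 1 rise is 11.1% of the list beside 11.8% of all genes. The call held in 9 of 15 alternatives (adjusted p 0.00812 to 0.0698). Among the losses were those with no filter on FPKM (0.05002) and without control replicate 1 (0.0542), control replicate 3 (0.0513), cKO replicate 1 (0.0698) or cKO replicate 2 (0.0642). In limma, 0 of the 9 fell, beside 22.2% of all genes tested, and with limma-voom 0 fell, beside 3334 of 15451 genes. It was also 0 at an unadjusted p under 0.05, where the falls over all genes were not counted. The median log2 fold change of the 9 was 0.087.

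**Figure D4:**
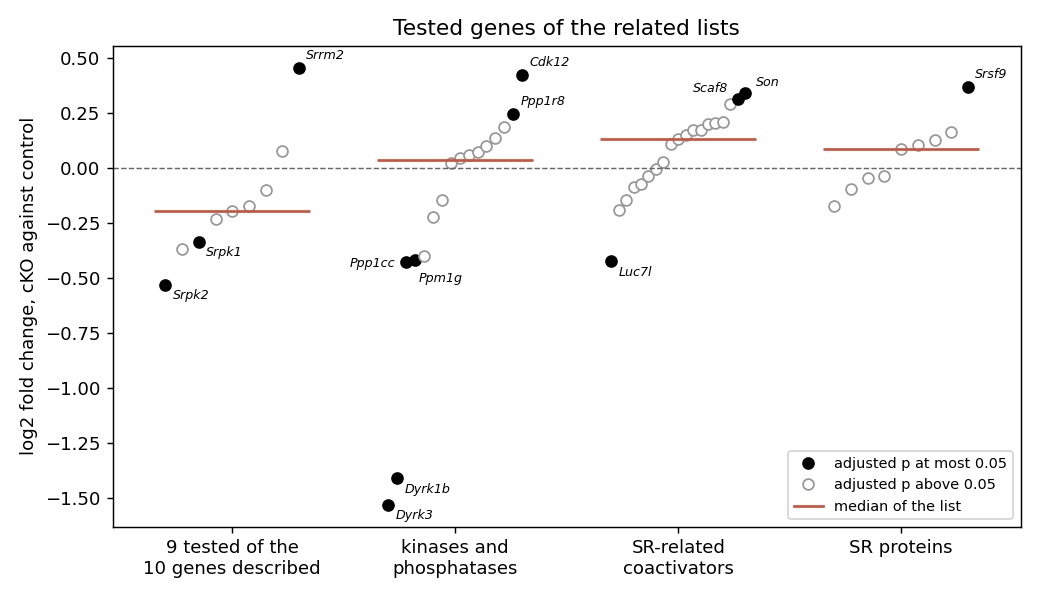
Log2 fold change (y axis, cKO against control on the log2(FPKM + 1) scale) of the tested genes among the 10 genes described and 3 related lists, sorted within each list. Filled points mark an adjusted p of at most 0.05 and carry their names, and the red lines give the medians (-0.19, 0.037, 0.13 and 0.087). *Dyrk3* and *Dyrk1b* fell most, and after quantile normalisation 9 coactivators rose instead of 2, while the rises over all genes tested went from 1821 to 5164.

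The genes whose profile over the 6 libraries was most like that of the risen and the most fallen gene were listed as a description. For *Srrm2* these were *Ccnb3*, a meiotic cyclin (Pearson r = 0.996), *Setd2*, the H3K36 methyltransferase (0.995), and *Ncl*, nucleolin (0.994), among 12319 other protein-coding genes. For *Srpk2* they were *C1qtnf4*, a secreted protein (0.998), *Aspscr1*, a tether of the glucose transporter GLUT4 (0.997), and *Git1*, a regulator of ARF GTPases (0.997). At a looser limit, 276 genes had r of at least 0.95 with *Srrm2* and 806 with *Srpk2*, so many genes share a high r with each. Genes at the higher values named above were not counted. *Ccnb3* was at 20.1, 14.1 and 19.0 FPKM in controls and 71.9, 61.1 and 46.1 FPKM in cKO, so that in both groups its libraries followed the order of *Srrm2*.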

How the data were processed

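RNA-seq of STRA8+ cells was analysed in 3 control and 3 *Srsf1* cKO libraries, grouped by the labels. The authors deposited 1 table of FPKM per gene with the gene length. The submitters' processing notes name HISAT2 2.0.5 and mm10, and the counting tool is not given in the sources used here. The product of FPKM and gene length was a whole number of steps, of 1 size per library, for 100% of values above 0 (tolerance 0.05 of a step), which gave the fragments counted. The denominator of the deposited FPKM was 0.971 to 0.999 times the fragment sum in controls and 0.993 to 1.05 times in cKO, so it carries a library factor that the sources do not describe. Median-of-ratios factors of the deposited FPKM were 1.01 in all 6 libraries, so the values already carry that scaling. The floor was 3 fragments. Since replicates were available, no counting intervals were computed.

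Genes averaging 1 FPKM or more were tested on log2(FPKM + 1) with limma 3.58.1 in R 4.3.3 (lmFit, eBayes with a trend, two-sided), with Benjamini-Hochberg adjustment over the 15451 genes and a threshold of 0.05. A log2 fold change on this scale understates the change of low genes. Levels are means ± SD over 3 libraries. Named were all 10 genes, *Srsf1*, up to 2 largest rises and 2 largest falls called in each related list, and the 3 most similar profiles. The genes, lists and tests were chosen with earlier results of these data known. Alternatives were a pseudocount of 0.1, no filter or a mean of 5 FPKM, median-of-ratios scaling, and quantile normalisation. Others were eBayes without the trend, a replicate block, leaving out each library, and limma-voom on the recovered fragments. FPKM without the authors' library factor was added after seeing the data. The scripts were tested on simulated data. Gene models came from GENCODE M21 and promoter windows from RefSeq. Protein sequences were not used here.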

Additional observations from a re-analysis of the deposited data

How the results depend on the processing

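*Srrm2* was higher and past the threshold under all 15 alternatives, and the number of the 10 genes that rose was 1 in each. The number that fell, 2 as reported, was 0 after quantile normalisation and 0 with the replicate number as a block, and it ran from 1 to 4 when a library was left out (1 without cKO replicate 3, 4 without control replicate 2). The samples share only a number: the deviations of same-numbered libraries from their group means had correlations of -0.0014, -0.11 and 0.016. With the replicate block, the adjusted p was 0.0647 for *Srpk1*, 0.0509 for *Srpk2*, 0.0618 for *Cdk12*, 0.115 for *Ppp1r8*, 0.0529 for *Scaf8* and 0.0586 for *Srsf9*. Under it 891 of all genes tested rose and 2870 fell, beside 1821 and 3437 as reported. The mean shifts of the paralogue ratios were unchanged by construction, with sign-flip p-values of 0.25 to 0.75, of which 0.25 is the smallest that 3 pairs allow. Quantile normalisation turned *Clk1* to 0.075 and gave 5164 rises and 2527 falls over all genes. A mean of 5 FPKM gave 1283 and 1950 among the 8929 genes it keeps, and the share of rises was 14.4% beside 11.8% as reported. The fewest rises when a library was left out were 969, without cKO replicate 3. Rises among the kinases and phosphatases ran from 0 to 3, among the coactivators from 1 to 9 and among the SR proteins from 0 to 2, while their falls stayed at 4, 1 and 0. Median-of-ratios factors were 1.01 in all 6 libraries and so changed nothing. This alternative could not differ from the main fit and adds no weight to the counts of alternatives passed. When a library was left out, the shift of *Srpk1* to *Srpk2* ran from 0.12 (without control replicate 2) to 0.36 (without control replicate 1), that of *Clk1* to *Clk4* from -0.25 to -0.13 and that of *Tra2b* to *Tra2a* from 0.084 (without control replicate 1) to 0.23 (without control replicate 2). That of *Clk2* to *Clk3* ran from -0.079 (without control replicate 2) to 0.13 (without cKO replicate 1), and it was also below 0 without cKO replicate 2 (-0.064). All these moves were under 1 SD of the libraries. Leaving out 1 of 3 libraries cannot move a mean further than that, so this is no measure of stability. With 5 to 12 fragments a library, *Srpk3* was too shallow to compare.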
